A study of Schizosaccharomyces pombe with 4 samples.

Results

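The switch from growth to meiosis was followed through 7 of the 12684 features in the count tables. They were chosen as regulators of this switch: the inducers *mei2*, *mei3*, *ste11* and the RNA listed as SPNCRNA.103, the inhibitors *pat1* and *mot2*, and the TOR kinase gene SPBC30D10.10c, which was put forward as *tor2*. The RefSeq annotation names SPBC30D10.10c *tor1*, and *tor2* is SPBC216.07c. The TOR gene chosen was therefore described as *tor1*, kept out of both role groups, and set beside *tor2*. RNA came from haploid *h-* *Schizosaccharomyces pombe* cells that the labels call vegetative and wild type, grown at 30 °C over 2 days in the minimal medium EMM. The 4 libraries are 2 biological replicates of total RNA depleted of ribosomal RNA and 2 of RNA enriched on oligo(dT), the poly(A)+ fraction. All 4 libraries carry *leu1-32* and *pat1-L95G::kanR*, so the *pat1* counts are those of an allele tagged with a resistance marker. The effect of the marker on these counts is not known. The *pat1-L95G* allele encodes an ATP analogue-sensitive kinase, which the study inactivates with an inhibitor to induce meiosis in haploid cells. No inhibitor is named in the labels of these growing cultures. The question addressed here is how the RNA levels of inhibitors and inducers compare in cells that are growing, and how each RNA differs between the fractions.

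In fission yeast, starvation and mating lead to meiosis. Ste11, an HMG-box transcription factor, turns on genes for mating and meiosis, *mei2* and its own gene among them. Mei2 is the RNA-binding protein that commits cells to meiosis, and in growing cells the Pat1 kinase phosphorylates both Mei2 and Ste11 and holds them back. Mei3, a small protein made in starved diploid cells, binds and inhibits Pat1. During growth, the YTH-domain protein Mmi1 binds UNAAAC motifs in meiotic transcripts and brings about their degradation, and Mot2, the ubiquitin ligase of the Ccr4-Not complex, is recruited by Mmi1 to limit Mei2. The non-coding meiRNA, made from *sme2*, is rich in such motifs and acts with Mei2 to sequester Mmi1. Tor2, in TOR complex 1, favours growth and represses sexual differentiation, whereas Tor1, in TOR complex 2, is needed for it.

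Sequences read from RefSeq assembly ASM294v3 show what sets some of these genes apart. SPNCRNA.103 was counted over II:338363-339421 on the minus strand, 1059 nucleotides (nt). Its sequence held 22 UNAAAC motifs on the sense strand (TNAAAC in the DNA), or 20.8 per kilobase (kb). The median over 12638 features was 1.66 per kb, and only 2 features, this one included, reached 20.8. Its first 230 bases, II:339192-339421, are shown because they hold 11 of the motifs, printed in capitals.
SPNCRNA.103 first bases: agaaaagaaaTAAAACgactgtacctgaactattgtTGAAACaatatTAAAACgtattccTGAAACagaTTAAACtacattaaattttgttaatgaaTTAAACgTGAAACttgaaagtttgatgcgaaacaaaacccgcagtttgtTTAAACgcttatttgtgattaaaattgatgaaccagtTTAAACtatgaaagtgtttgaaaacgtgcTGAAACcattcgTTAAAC

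The promoters of *mei2* and *ste11*, the most abundant inducers, are shown because they were the promoters in this group with the Ste11 recognition core, TTCTTTGTT. The windows run from 250 bases before to 50 after the annotated start, and the core was searched on both strands. It overlaps no UNAAAC motif. *mei2* held 3 copies, at -160, -138 and 35 from the start, and *ste11* held 1, at -127. Among 5112 promoters of protein-coding genes, 1.995% held the core and 4 held at least 3 copies. The windows of *pat1*, *mot2*, *mei3*, *tor1* and SPNCRNA.103 did not hold these letters. Capitals mark the core, and the windows are I:4514976-4515275 on the minus strand for *mei2* and II:3983126-3983425 on the plus strand for *ste11*.
mei2 promoter window: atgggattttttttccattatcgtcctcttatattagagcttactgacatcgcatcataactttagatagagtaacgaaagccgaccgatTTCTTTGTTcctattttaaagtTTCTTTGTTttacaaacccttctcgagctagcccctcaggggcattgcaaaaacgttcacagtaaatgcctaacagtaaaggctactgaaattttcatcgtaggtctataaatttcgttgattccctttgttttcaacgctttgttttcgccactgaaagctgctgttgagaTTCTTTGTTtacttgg
ste11 promoter window: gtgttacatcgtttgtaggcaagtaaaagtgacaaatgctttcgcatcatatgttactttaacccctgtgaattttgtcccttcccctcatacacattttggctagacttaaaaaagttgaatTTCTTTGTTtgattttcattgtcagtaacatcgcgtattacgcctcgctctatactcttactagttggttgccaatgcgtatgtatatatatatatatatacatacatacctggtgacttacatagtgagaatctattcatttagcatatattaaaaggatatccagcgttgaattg

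The mRNAs carried far fewer UNAAAC motifs than SPNCRNA.103. Per kb of gene, *mei3* held 3.56, *pat1* 2.95, *mot2* 2.08, *ste11* 1.99, *tor1* 0.667 and *mei2* 0.495. A density at least that of *mei3* was found in 13.9% of features, and one at least that of *mei2* in 76.1%. A match to these letters is a description and no measure of binding.

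The libraries held 25530272 to 30650533 counts. Protein-coding genes took 85.9% and 86.4% of these in total RNA but 69.3% in each poly(A)+ library. Levels scaled to all counts of a library therefore do not compare a protein-coding gene between the fractions on an equal footing. Genes for M-cell mating functions (*mfm1*, *mfm2*, *mfm3*, *mam1* and *mam2*) lay between 182 and 2714 RPKM in total RNA (RPKM, counts scaled to gene length in kb and to the counts of the library). Of the 5 P-cell names only *map2* and *map3* were matched. They summed to 5.35 and 5.58 RPKM in total RNA, so that the markers found there match the *h-* label. In poly(A)+ RNA *map3*, of which 99.8% lies under features on the opposite strand, reached 17.0 and 24.1 RPKM. The 10 genes of meiosis and spore formation fixed as markers lay at or below 3.44 RPKM in total RNA, and none was at 0. In poly(A)+ RNA, *spo6*, *mde2* and *meu14* reached 12.1 to 35.4 RPKM. All 3 lie wholly under features on the opposite strand, and the poly(A)+ counts appear not to keep the strands apart.

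This last point bears on every poly(A)+ level given here. In the total RNA libraries, features on the opposite strand, weighted by their overlap, summed to at most 2.87% of the counts of *mei2*, *pat1*, *ste11*, *mot2* or *tor1*. In poly(A)+ RNA the same features summed to between 42.9% and 87.2%. *pat1* is covered over its whole length by SPNCRNA.5298 on the other strand, which received 47 and 48 counts in total RNA against 542 and 903 in poly(A)+ RNA, beside 521 and 893 for *pat1* itself. A poly(A)+ count is therefore read here as the signal of both strands. This reading comes from the counts, since the strand option of the counting is not given. Library kit, read length and sequencer also changed with the fraction, so that their effects and that of the fraction cannot be told apart.

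Among the inducers, *mei2* was the most abundant RNA of the group. It has the identifier SPAC27D7.03c and is annotated at I:4510983-4515025 on the minus strand, 4043 nt without introns. Its counts in total RNA were 13162 and 15592, against 6470 and 9311 in poly(A)+ RNA. This gave 106 and 133 RPKM against 62.7 and 75.8 RPKM, or 119.5 ± 18.8 and 69.3 ± 9.31 (mean ± SD, n = 2). Both poly(A)+ libraries lay below both total RNA libraries. In total RNA, *mei2* stood above 85.0% and 87.1% of protein-coding genes, so that the mRNA of the meiotic commitment factor was among the more abundant ones in growing cells.

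*ste11* (SPBC32C12.02), at II:3983376-3987400 on the plus strand (4025 nt), followed it. Total RNA gave 7675 and 8323 counts, and poly(A)+ RNA 6221 and 6370. In RPKM these were 62.2 and 71.2 against 60.5 and 52.1, or 66.7 ± 6.33 and 56.3 ± 5.95 (n = 2 each). In RPKM the ranges of the fractions lay next to each other without overlap. With scaling from protein-coding genes, described below, the log2 fold change of *ste11* was -0.011 (edgeR adjusted p = 0.957). The level of *ste11* was above 76.2% and 78.5% of protein-coding genes in the total fraction and above 79.6% and 75.4% in the poly(A)+ fraction.

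*mei3* (SPBC119.04), at II:719585-720990 (1406 nt), was near the lower limit of these libraries. Total RNA gave 15 and 9 counts, and poly(A)+ RNA 10 and 17. The levels were 0.348 and 0.220 RPKM against 0.279 and 0.398 RPKM, and the fractions overlapped. Only 3.01% and 2.15% of protein-coding genes were lower in total RNA. RefSeq starts the gene at 719719, inside the counted interval, and the first 33 nt of that interval are shared with SPNCRNA.324 on the same strand, which had 13, 6, 8 and 0 counts in the same order of libraries. In RNA from a whole culture, fewer cells with a transcript and less of it in each cell cannot be told apart.

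SPNCRNA.103 received 258 and 293 counts in the total fraction against 8 and 24 in the poly(A)+ fraction. The levels were 7.95 and 9.52 RPKM against 0.296 and 0.746 RPKM, or 8.74 ± 1.11 and 0.521 ± 0.319 (n = 2 each). Its total RNA level was thus 30.7-fold that of *mei3*, and 17.8% and 21.7% of protein-coding genes were lower in the 2 libraries. In poly(A)+ RNA its 2 libraries differed by more than 2-fold and its range overlapped that of *mei3*.

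Of the inhibitors, *pat1* (SPBC19C2.05) lies at II:1682861-1684555 (1695 nt) and gave 1184 and 1363 counts in total RNA against 521 and 893 in poly(A)+ RNA. The levels were 22.8 and 27.7 RPKM against 12.04 and 17.4 RPKM, or 25.2 ± 3.45 and 14.7 ± 3.76 (n = 2 each). *pat1* was thus close to the middle of the protein-coding genes in total RNA, above 46.7% and 52.4% of them.

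*mot2* (SPAC16C9.04c), at I:796876-798802 on the minus strand (1927 nt with 2 introns), received 1109 and 997 counts in total RNA against 583 and 876 in poly(A)+ RNA. This gave 18.8 and 17.8 RPKM against 11.9 and 15.0 RPKM, or 18.3 ± 0.686 and 13.4 ± 2.21 (n = 2 each). In RPKM, which scales to all counts, both inhibitors were lower in both poly(A)+ libraries than in either total RNA library. With scaling from protein-coding genes, described below, the log2 fold change of *mot2* was only -0.23 (edgeR adjusted p = 0.208).

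*tor1*, at II:3075748-3083248, is the longest gene of the group with 7501 nt. Its 9081 and 8848 counts in total RNA stood against 1606 and 2012 in poly(A)+ RNA. The levels were 39.5 and 40.6 RPKM against 8.39 and 8.83 RPKM, or 40.0 ± 0.777 and 8.61 ± 0.317 (n = 2 each). The replicates differed little and the fractions stood far apart.

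**Figure D1:**
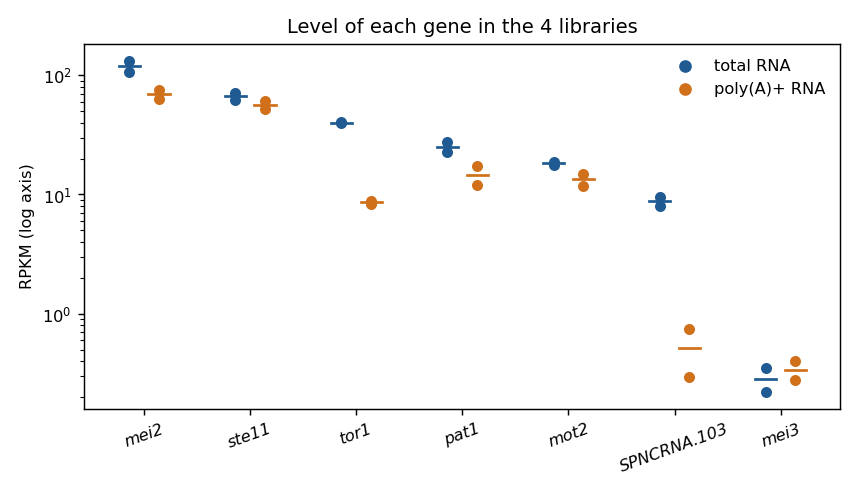
Level of each gene in RPKM (log axis), with a point for each library and a bar for the mean of the 2 libraries of a fraction, ordered by total RNA. *mei2* leads with 119.5 RPKM in total RNA and *mei3* is last with 0.284; *tor1* and SPNCRNA.103 show the widest gaps between the fractions.

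In total RNA the order of levels was *mei2*, *ste11*, *tor1*, *pat1*, *mot2*, SPNCRNA.103 and *mei3*. Each neighbour was lower than the one before it, by 1.79-, 1.67-, 1.59-, 1.38-, 2.09- and 30.7-fold, and no 2 neighbours overlapped. In poly(A)+ RNA *tor1* stood at the fifth place in place of the third, behind *pat1* and *mot2*. There the ranges of *pat1* and *mot2* overlapped, as did those of SPNCRNA.103 and *mei3*. These orders rest on 2 libraries a fraction and were not tested. Without division by gene length, 5 of the 7 genes kept their place in each fraction.

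The inducers did not form a single level. The mean log2 RPKM of *mei2* and *ste11* exceeded that of *pat1* and *mot2* by 1.97 and 2.13 in total RNA, and by 2.37 and 1.96 in poly(A)+ RNA. The mean of *mei3* and SPNCRNA.103 differed from that of the inhibitors by -3.64 and -3.94 in total RNA and by -5.38 and -4.89 in poly(A)+ RNA. Taken over all 4 inducers, the difference from the inhibitors was -0.87 ± 0.051 in total RNA and -1.48 ± 0.032 in poly(A)+ RNA (log2 RPKM, n = 2 each). Without SPNCRNA.103, the poly(A)+ difference became -0.35. So the transcripts of the 2 proteins that Pat1 restrains were above that of the tagged *pat1* allele. The transcript of the Pat1 inhibitor Mei3 was at a ratio of 0.0231 or less to that of this allele.

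Ratios within a library need no scaling between libraries, and 6 pairs were compared. *mei3* over *pat1* was 0.0153 and 0.00796 in the total RNA libraries against 0.0231 and 0.0230 in the poly(A)+ libraries. *mei2* over *pat1* was 4.66 and 4.80 against 5.21 and 4.37. The difference of the log2 ratios, poly(A)+ minus total RNA, was 0.013 and the fractions overlapped (exact permutation test, 2-sided p = 1, adjusted p = 1). *ste11* over *pat1* was 2.73 and 2.57 against 5.03 and 3.004, and *mei2* over *mot2* was 5.66 and 7.45 against 5.29 and 5.07. SPNCRNA.103 over *mei2* went from 0.0748 and 0.0717 to 0.00472 and 0.00984, a log2 difference of -3.43. SPNCRNA.103 over *mmi1*, which encodes the protein that meiRNA sequesters, went from 0.171 and 0.197 to 0.0263 and 0.0424, a log2 difference of -2.46. Apart from *mei2* over *pat1*, the fractions did not overlap in any pair. Each of these gave p = 0.333 in the exact permutation test, the smallest that 2 libraries against 2 allow, and an adjusted p of 0.4 over the 6 pairs.

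Poly(A)+ RNA was then compared with total RNA in edgeR (quasi-likelihood test), over all 11234 genes that passed its filter and with library sizes scaled by TMM, the trimmed mean of M-values. A positive log2 fold change means that the poly(A)+ signal was the higher. At an adjusted p under 0.05, 85.3% of the genes tested differed, with 49.7% higher and 35.5% lower in the poly(A)+ fraction. Of 5008 protein-coding genes 80.3% differed, with 7.89% higher and 72.4% lower. All 7 regulators passed the filter, of which 6 were called lower in poly(A)+ RNA and 0 higher, with DESeq2 as well as with edgeR and also at an unadjusted p under 0.05. The 5 called among 6 protein-coding regulators are thus a share like that of protein-coding genes in general. The log2 fold change had a median of 0.84 over all genes, -0.93 over protein-coding genes and -1.54 over the regulators. When the TMM factors came from protein-coding genes alone, the medians of all and protein-coding genes were 1.81 and 0.040, and over all genes 6843 were higher and 1431 lower, against 5586 and 3992. Each change is therefore given also relative to the median protein-coding gene.

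*mei2* and *pat1* fell by like amounts. The log2 fold change was -1.54 ± 0.15 (standard error) for *mei2* and -1.54 ± 0.20 for *pat1*, with edgeR adjusted p of 0.00013 and 0.00047. Both were at -0.61 once the protein-coding median was subtracted. *mot2* fell by 1.20 ± 0.15 on the log2 scale (edgeR adjusted p = 0.00047) and was at -0.27 relative to that median. *ste11* fell by 0.98 ± 0.16 (edgeR adjusted p = 0.0015) and was at -0.05, so that its change was close to that of the median protein-coding gene. *mei3* did not pass the threshold, with -0.49 ± 0.52 and an edgeR adjusted p of 0.40.

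*tor1* and SPNCRNA.103 stood apart. *tor1* was 7.81-fold lower in poly(A)+ RNA, a log2 fold change of -2.97 ± 0.12 (edgeR adjusted p = 5.6e-06), and 4.10-fold lower than the median protein-coding gene. Only 1.36% of protein-coding genes had a lower value. SPNCRNA.103 was 27.6-fold lower, a log2 fold change of -4.79 ± 0.42 (edgeR adjusted p = 8.8e-05). The log2 fold change was -5.54 without poly(A)+ RNA replicate 2, which had 24 counts, and -4.28 without poly(A)+ RNA replicate 1, which had 8. Of 6028 long non-coding RNAs tested, 22 had a lower value and 498 were below 0. Among the 213 of them that overlap nothing on the opposite strand, the median was 0.42 and 5 were lower than SPNCRNA.103.

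With scaling factors from protein-coding genes, 4 of the regulators were called lower, namely *mei2*, *pat1*, *tor1* and SPNCRNA.103, beside 24.4% of protein-coding genes. When the total RNA counts were made strand-blind by adding those of the opposite strand, an alternative chosen after the data were seen, 2 were called, *tor1* and SPNCRNA.103, beside 22.6% of protein-coding genes. *tor1* kept an adjusted p of at most 0.000947 and SPNCRNA.103 of at most 0.00345 over 13 alternatives.

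The value of *tor1* was that of other long genes. Log2 fold changes of protein-coding genes went down with gene length (Spearman's rho = -0.40 across 5008 genes, which are not independent replicates). Relative to the median protein-coding gene, the median was 0.17 for 2900 genes under 2 kb, -0.29 for 1779 genes of 2 to 4 kb, -1.02 for 267 genes of 4 to 6 kb and -2.02 for 62 genes of 6 kb and more. *tor1*, with -2.03, lay at the median of the last class, whose quartiles were -2.66 and -1.36. *mei2* and *ste11*, just over 4 kb, were above the median of their class with -0.61 and -0.05. *pat1* and *mot2*, just under 2 kb, were below the median of theirs with -0.61 and -0.27. The part of length in these values was not tested.

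**Figure D2:**
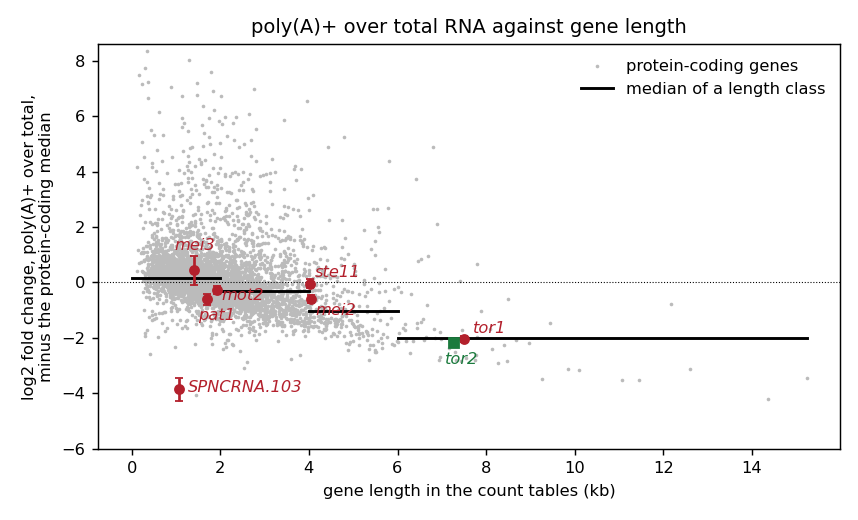
Log2 fold change, poly(A)+ over total RNA, minus the protein-coding median, against gene length in kb. Grey points are protein-coding genes, black lines the medians of 4 length classes, red points the 7 regulators and the green square *tor2*, with bars for the standard error. *tor1* and *tor2* lie close to the median of the longest class (-2.02), while only 0.0399% of protein-coding genes lie lower than SPNCRNA.103.

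*tor2*, which encodes the TOR complex 1 kinase and lies at II:915085-922352 (7268 nt), behaved like *tor1*. Total RNA gave 11716 and 12155 counts, and poly(A)+ RNA 1809 and 2591. The levels were 52.6 and 57.6 RPKM against 9.75 and 11.7 RPKM, and the log2 fold change was -3.11 ± 0.13 (edgeR adjusted p = 5.8e-06), or -2.18 relative to the median protein-coding gene. The level of *tor1* over that of *tor2* was 0.751 and 0.705 in total RNA against 0.860 and 0.752 in poly(A)+ RNA. The gene for the growth-promoting kinase was thus the higher of the pair in each of the 4 libraries.

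Where the poly(A)+ signal lay along the long genes was followed with the short features on their opposite strand. The counts of that fraction appear not to keep the strands apart. Over *tor1*, a feature centred 7141 nt from the 3′ end had 0.228 and 0.356 times the counts per nt of *tor1* itself in the 2 poly(A)+ libraries. At 4255 nt the ratio was 0.795 and 0.562, at 2598 nt 1.26 and 1.43, and at 924 nt 2.63 and 2.90. A feature that reaches past the 3′ end gave 1.23 and 0.93. Over *tor2* the ratio went from 0.301 and 0.224 at 6712 nt to 1.75 and 2.06 at 1102 nt. Over *mei2* it went from 0.282 and 0.246 at 3170 nt to 0.686 and 0.711 at 2115 nt and 3.53 and 3.54 at 116 nt. Over *ste11* it was 0.869 and 0.756 at 2733 nt and 1.30 and 1.44 at 1562 nt. In each of these 4 genes the poly(A)+ signal was thus denser toward the 3′ end. The nearest features of *mei2* and *tor2* reach past that end. In total RNA the ratios of the features over these 4 genes were at most 0.0201, and the strand they measure there is not that of the gene. Over *mot2*, also drawn, the poly(A)+ ratio was 1.71 and 1.25 at 1581.5 nt and 1.44 and 1.57 at 724.5 nt, so that the 2 libraries went opposite ways. A feature that reaches past its 5′ end gave 0.156 and 0.109.

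**Figure D3:**
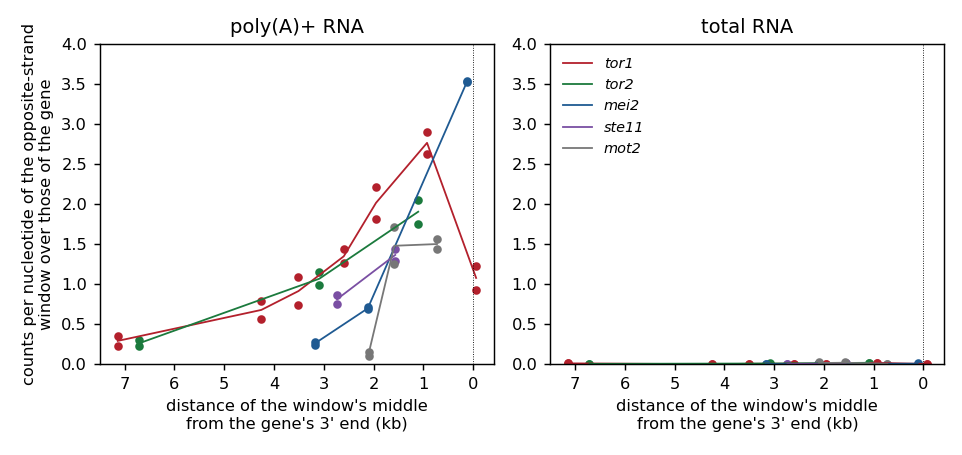
Counts per nt of features on the opposite strand, divided by those of the gene they overlap, against the distance of their middle from the gene's 3′ end in kb, for poly(A)+ RNA (left) and total RNA (right). Points are libraries and lines their means; in poly(A)+ RNA the ratio over *tor1* goes from below 0.36 near the 5′ end to between 2.63 and 2.90 near the 3′ end, and in total RNA all ratios are near 0.

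What was counted as SPNCRNA.103 is not the whole of meiRNA. RefSeq places *sme2*, with SPNCRNA.103 among its synonyms, at II:339346-340907 on the minus strand (1562 nt). The counted interval lies downstream of it and shares 76 nt with it, or 7.18% of the counted interval and 4.87% of *sme2*. The short form, *sme2-S*, covers the first 509 nt of *sme2* and no base of the counted interval. UNAAAC motifs lie mainly outside that short form, which holds 1, whereas the shared 76 nt hold 5, RefSeq *sme2* 9, and the 2545 nt from the 5′ end of *sme2* to the far end of the counted interval 26. No count for *sme2* as RefSeq draws it was used here. The values of SPNCRNA.103 are therefore those of the motif-rich region downstream of, and slightly overlapping, annotated *sme2*. Several of the fluorescence probes that the study used for meiRNA are complementary to the first bases shown above, also past the shared 76 nt. The study thus treats at least this part of the counted interval as meiRNA.

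Other features at this locus were counted too. SPNCRNA.4674, on the opposite strand within *sme2*, received 5 and 0 counts in total RNA against 150 and 94 in poly(A)+ RNA. Since poly(A)+ counts appear not to keep the strands apart, the strand of this signal is not known. SPNCRNA.4673, on the opposite strand within the counted interval, received 3 and 1 counts in total RNA against 0 in both poly(A)+ libraries. SPNCRNA.1342, opposite the 5′ part of *sme2*, had 12 and 30 against 14 and 21. *mrpl8*, a mitochondrial ribosomal protein gene whose 3′ part shares 212 nt with *sme2*, had 456 and 346 against 485 and 634. In poly(A)+ RNA, counts were thus few over the motif-rich region and more numerous over the 773 nt of SPNCRNA.4674, which lies mostly upstream of it.

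**Figure D4:**
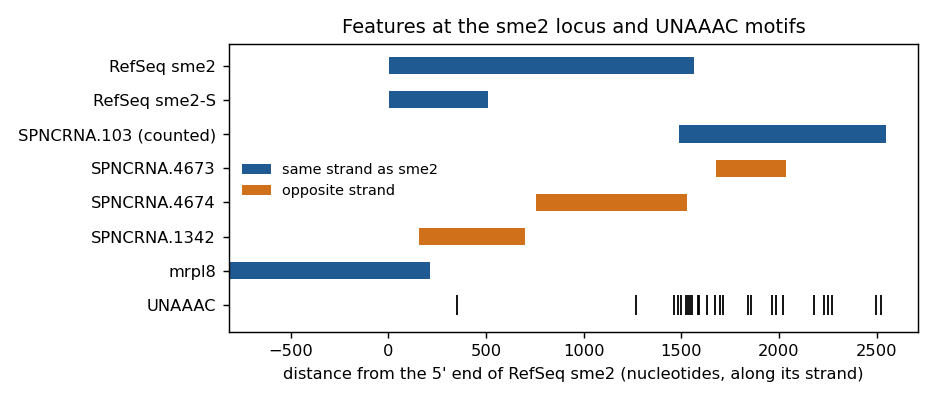
Features at the *sme2* locus drawn to scale by distance from the 5′ end of RefSeq *sme2* along its strand (nt), in blue on the strand of *sme2* and in orange on the other. Ticks mark the 26 UNAAAC motifs of the sense strand between the 5′ end of *sme2* and the end of the counted SPNCRNA.103, which holds 22 of them.

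Genes with levels most like those of each regulator were found by the distance of log2(RPKM + 0.1) over the 4 libraries, among 4257 named protein-coding genes. They were *cbl1* for *mei2* (distance 0.255), *cog1* for *pat1* (0.140), *dfg501* for *ste11* (0.116) and *trz2* for *mot2* (0.169). *brr2*, another long gene with 6835 nt, was nearest to *tor1* (0.120). For *mei3* it was *mat3-Mc* (0.802), a silent mating-type cassette gene with near-identical copies, whose few counts are uncertain. Among 7200 non-coding RNAs, SPNCRNA.1444 was nearest to SPNCRNA.103, at the larger distance of 1.27.

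The other genes of the pathway were taken from a pair of lists, one of genes known to hold back sexual differentiation or meiosis in growing cells and one of genes known to promote them. Of the 25 genes of the first list beside *pat1* and *mot2*, 21 fell, 0 rose and 4 did not pass. With this scaling all 25 had a log2 fold change below 0, but only 15 of them were below the protein-coding median. Of the 24 genes tested in the second list beside the regulators above, 19 fell, 2 rose and 3 did not pass, and 14 were below that median. Among all protein-coding genes tested, 72.4% were lower and 7.89% higher. The median relative to the protein-coding median was -0.18 in the first list and -0.14 in the second. With scaling factors from protein-coding genes, 10 and 6 were lower, beside 24.4% of all protein-coding genes, and 2 and 4 were higher. In total RNA, the median level of the full first list was 44.7 RPKM in both libraries, and that of the full second list 31.3 and 32.7 RPKM.

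Among genes that hold meiosis back, *rhb1*, the small GTPase that activates TOR complex 1, was the most abundant with 110.0 ± 0.839 RPKM in total RNA (n = 2). *ccr4*, the deadenylase of the Ccr4-Not complex, and *not1*, its scaffold, followed with 100.1 ± 1.72 and 80.4 ± 3.14 RPKM, well above their partner *mot2*. *not1*, another gene over 6 kb long, was also among the 3 lowest changes, with a log2 fold change of -2.995 ± 0.12 (edgeR adjusted p = 6.4e-06). *git11*, the G-protein gamma subunit of glucose sensing, was lowest with 7.88 ± 0.011 RPKM, before *red1*, a partner of Mmi1 in RNA elimination, with 12.2 ± 1.26 RPKM and *not3* with 14.7 ± 1.12 RPKM. *mmi1* itself stood at 47.4 ± 1.23 RPKM in total RNA and 14.4 ± 4.48 RPKM in poly(A)+ RNA, and fell by 2.48 ± 0.19 on the log2 scale (edgeR adjusted p = 5.5e-05).

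Among genes that promote sexual differentiation, the stress-activated kinase *sty1* led with 147 ± 3.76 RPKM in total RNA, before the pheromone-response kinase *spk1* with 127 ± 6.84 RPKM and its upstream G-protein alpha subunit *gpa1* with 74.3 ± 3.18 RPKM. *mei2* was thus of the same order as these signalling genes. *mei4*, which encodes the transcription factor of the middle meiotic genes and whose transcript is a target of Mmi1, was at 1.49 ± 0.046 RPKM in total RNA and fell by 1.81 ± 0.34 on the log2 scale (edgeR adjusted p = 0.0028). Leaving aside *mei3*, the lowest levels of this list in total RNA were those of *cuf2*, a meiotic transcription factor, with 0.189 ± 0.120 RPKM, and of the mating-type genes *mat1-Mc* and *mat1-Mi*, with 0.337 ± 0.031 and 0.787 ± 0.397 RPKM. The mating-type genes have near-identical copies at the silent cassettes, so their counts are uncertain.

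The 2 genes that were higher in poly(A)+ RNA were *cuf2*, with a log2 fold change of 5.22 ± 0.50 (edgeR adjusted p = 0.00013), and *mat1-Mi*, with 3.24 ± 0.99 (edgeR adjusted p = 0.021). Both lie wholly under features on the other strand. *cuf2* received 2 and 5 counts in total RNA against 203 and 215 in poly(A)+ RNA, while the opposite-strand counts over it came to 10816% and 4773% of its own in total RNA but to 52.0% and 63.9% in poly(A)+ RNA. Without total RNA replicate 1, total RNA replicate 2 or poly(A)+ RNA replicate 2, *mat1-Mi* was no longer called (edgeR adjusted p = 0.11, 0.067 and 0.091), and with strand-blind total RNA *cuf2* was at 0.36 ± 0.22 (edgeR adjusted p = 0.24). Leaving aside the 7 regulators, the strongest decrease in the lists was that of *cgs1*, the regulatory subunit of protein kinase A, which went from 69.6 ± 1.78 to 8.27 ± 3.73 RPKM (log2 fold change -3.80 ± 0.37, edgeR adjusted p = 0.00015) although the gene is 2608 nt long. Among the other called genes *ste7* changed least, with -0.45 ± 0.15 (edgeR adjusted p = 0.033), but it was at 0.48 relative to the median protein-coding gene. Its RPKM was higher in poly(A)+ RNA, with 18.1 and 18.8 against 13.6 and 16.4 in total RNA. The sign of its change thus depends on the scaling. *ste7* overlaps no feature on the other strand.

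For comparison, *act1*, the actin gene, was at 2753 and 2777 RPKM in total RNA against 1164 and 1104 RPKM in poly(A)+ RNA. *cdc2*, the cell-cycle kinase gene, was at 43.9 and 47.9 RPKM against 36.0 and 41.3 RPKM. The levels of *tor1*, *mmi1* and *cdc2* were thus alike in total RNA, with *mei2* and *ste11* above and *pat1* and *mot2* below.

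**Figure D5:**
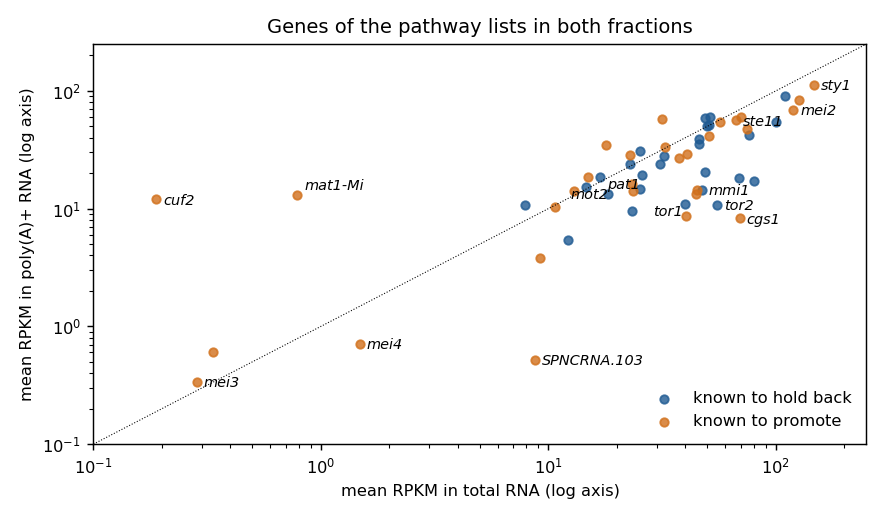
Mean RPKM in poly(A)+ RNA against mean RPKM in total RNA (both axes log) for genes known to hold back (blue) and to promote (orange) sexual differentiation or meiosis, with a dotted line of equality. Most genes lie on or below the line, *cuf2* and *mat1-Mi* far above it and SPNCRNA.103 (8.74 against 0.521) far below it.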

How the data were processed

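Per the labels and the paper's methods, the authors depleted ribosomal RNA (directional kit) or enriched poly(A)+ RNA (another kit), trimmed reads with cutadapt 1.15 or fastp 0.23.1, aligned them with STAR 2.6.1d and counted them per gene with featureCounts (Subread 2.0.6). The authors deposited these counts without normalization, 1 column per library. The genome build, strand and overlap options are not given in the sources used here. The header of each table has 1 cell too many, so fields were read by position, and the length field equalled the gene span in all 12684 features. By identifier, 12602 features (99.4%) matched RefSeq ASM294v3, 12594 with the same start and 12601 with the same end, and 11316 overlap a feature on the opposite strand.

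Levels were computed as RPKM from the counts and gene spans. Poly(A)+ and total RNA were tested against each other in R 4.3.3 with edgeR 4.0.16 (TMM, filterByExpr, glmQLFit, glmQLFTest, Benjamini-Hochberg over all genes tested), with 2 libraries a fraction. The F statistic gave the standard error of each log2 fold change. Exact permutation tests used scipy 1.17.1. The count test was tried on simulated data. The members and lists were chosen with earlier results of these data known. The pathway lists held 27 and 32 names, of which 27 and 30 were matched by symbol or synonym, with *sme2* set to SPNCRNA.103 by identifier. All regulators were named, and of the lists *tor2*, *mmi1*, *act1*, *cdc2* and the 3 highest and 3 lowest levels of each list. Among called genes, those with the 3 highest and 3 lowest log2 fold changes, sign included, were named too. *mei4*, *spo6*, *mde2* and *meu14* were chosen with their values known. The libraries of 25530272 to 30650533 counts limit the precision of *mei3* and of SPNCRNA.103 in poly(A)+ RNA, which rest on under 30 counts each.

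The labels do not say whether libraries with the same replicate number came from the same culture. The deviations of replicate 1 had a correlation of r = -0.0175 between fractions over 11234 genes. This cannot settle the pairing, since the spread between poly(A)+ libraries could hide a shared culture. Alternatives covered other scalings, DESeq2 1.42.0, filters, a log2 fold change of at least 1, a replicate block and each library left out. Strand-blind total RNA counts were added after the data were seen.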

Additional observations from a re-analysis of the deposited data

How the results depend on the processing

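The call that *tor1* and SPNCRNA.103 were lower in poly(A)+ RNA held in all 13 alternatives run on each, and 77 of the 90 values of single regulators kept their direction and side of the threshold. Genes called higher and lower numbered 5586 and 3992. With strand-blind total RNA they became 972 and 1137 (protein-coding genes alone tested). Lower calls were 2598 when a change of 1 or more on the log2 scale was asked for, and 2023, 1431 and 1906 with TMM from features without opposite overlap, TMM from protein-coding genes and library totals. Regulators called lower went from 6 to 2 with strand-blind counts, and were 5, 4 and 4 under those 3 scalings. Of the pathway lists, 46 genes were lower, and 27, 20, 25 and 15 under those 3 scalings and strand-blind counts. The 2 higher became 6 with TMM from protein-coding genes, 6 with strand-blind counts, 1 at a mean of at least 50 counts, and 1 to 3 with a library left out, 1 without either total RNA library. *mei3* turned to 0.23, 0.47 and 0.25 under those 3 scalings and to 0.65 with strand-blind counts, which also turned *ste11* to 0.16 (edgeR adjusted p = 0.443). *ste11* lost its call under those 3 scalings, *mot2* under TMM from protein-coding genes and library totals, and *mei2*, *pat1* and *mot2* with strand-blind counts (edgeR adjusted p = 0.074, 0.121 and 0.731). Beyond the scaling and the added counts themselves, the cause was not tested.

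The inducer minus inhibitor difference of -0.87 in total RNA was -0.57 without division by length, -0.76 with a pseudocount of 0.1, -1.17 and -0.51 with *tor1* among the inhibitors or the inducers, and -0.72 without SPNCRNA.103. In poly(A)+ RNA these were -1.19, -1.32, -1.25, -1.32 and -0.35, against -1.48. The log2 difference of *mei2* over *pat1* ranged from -0.11 to 0.14 with a library left out, and was -0.0076 without total RNA replicate 1 and -0.11 without poly(A)+ RNA replicate 1. With the replicate number as a block, 5518 genes were higher and 3900 lower, and the 6 calls among the regulators and 46 and 2 in the lists were unchanged in number. Without a library its fraction has only 1, whose spread is then assumed to be that of the other fraction, although the chi-square per degree of freedom between replicates was 9.74 in total RNA and 114 in poly(A)+ RNA.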
